A study of Homo sapiens with 12 samples.

Results

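The transcripts described here are those of 10 genes, the AP-1 subunits FOS, FOSB, FOSL1, FOSL2, JUN, JUNB and JUND and the immediate early factors ATF3, EGR1 and IER3. They were taken by symbol from a table of FPKM values (fragments scaled by gene length and library size) for 58735 human genes, in which each of the 10 symbols had 1 identifier. The cells were HaCaT, a spontaneously immortalised line of human skin keratinocytes, profiled by RNA sequencing in 12 libraries. PHGDH, the enzyme that opens the synthesis of serine from a glycolytic intermediate, was the target of the siRNA. The 4 groups had 3 libraries each: PHGDH-siRNA and its control, Control-siRNA, without mix, and PHGDH-siRNA+Mix and Control-siRNA+Mix. Cells of all 4 groups were transfected with an siRNA, and the cells of the mix groups were then given for 24 h a stimulus called mix, whose contents the labels do not state. All libraries are of 1 immortalised line, and no label says that replicates were separate cultures, so the p-values speak for the spread among these libraries, which may be technical.

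AP-1 is a dimer of basic leucine zipper (bZIP) proteins that binds the sequence TGANTCA. FOS-type proteins must pair with a JUN-type partner to bind, while JUN-type proteins can also pair among themselves, and ATF3 pairs with JUN-type proteins. Many of these genes are immediate early genes: growth factors, cytokines and stress switch them on within minutes through MAP kinases, the serum response factor SRF and factors of the CREB and ATF family, and the transcript often declines again soon after. In keratinocytes AP-1 takes part in the control of proliferation, of differentiation genes such as involucrin, and of inflammatory and matrix-degrading genes.

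The members' own promoters hold several of the elements named above, and 4 windows that hold such elements are shown as examples, not picked by test result. A window of 300 bases, from 250 before to 50 after the RefSeq start, was at hand for 8 of the 10 genes, all but FOSL1 and IER3. The build was GRCh38.p14, with 9 windows, as ATF3 has 2 starts. Each window was searched on both strands for the AP-1 site TGANTCA, the core TGACGT to which CREB and ATF factors bind, the related element TGACATCA and the CArG box of SRF. TATAAA was searched on the strand of the gene. Capitals mark all of these but TATAAA, positions give the first base of a match with the start site as 1 and the base before it as -1, and the ATF3 window is that of the upstream start. JUN lies at chr1:58783998-58784297 (minus strand), ATF3 at chr1:212565157-212565456 (plus strand), EGR1 at chr5:138465229-138465528 (plus strand) and FOSL2 at chr2:28392608-28392907 (plus strand).
JUN: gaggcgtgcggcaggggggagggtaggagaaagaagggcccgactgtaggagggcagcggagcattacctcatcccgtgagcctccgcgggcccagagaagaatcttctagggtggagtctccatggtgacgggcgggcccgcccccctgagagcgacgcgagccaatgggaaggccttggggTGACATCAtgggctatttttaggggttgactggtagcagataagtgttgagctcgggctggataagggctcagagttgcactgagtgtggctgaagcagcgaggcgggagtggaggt
ATF3: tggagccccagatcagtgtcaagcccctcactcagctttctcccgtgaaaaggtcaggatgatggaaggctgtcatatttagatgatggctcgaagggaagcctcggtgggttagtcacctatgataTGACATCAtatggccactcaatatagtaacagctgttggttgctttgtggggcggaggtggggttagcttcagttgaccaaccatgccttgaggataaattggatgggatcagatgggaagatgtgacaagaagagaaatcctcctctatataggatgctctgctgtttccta
EGR1: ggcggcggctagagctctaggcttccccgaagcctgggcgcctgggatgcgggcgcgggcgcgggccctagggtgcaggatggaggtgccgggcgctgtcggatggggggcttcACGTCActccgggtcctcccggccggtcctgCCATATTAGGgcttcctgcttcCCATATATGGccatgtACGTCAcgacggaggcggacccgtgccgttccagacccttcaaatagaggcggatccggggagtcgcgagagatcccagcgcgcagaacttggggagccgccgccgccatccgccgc
FOSL2: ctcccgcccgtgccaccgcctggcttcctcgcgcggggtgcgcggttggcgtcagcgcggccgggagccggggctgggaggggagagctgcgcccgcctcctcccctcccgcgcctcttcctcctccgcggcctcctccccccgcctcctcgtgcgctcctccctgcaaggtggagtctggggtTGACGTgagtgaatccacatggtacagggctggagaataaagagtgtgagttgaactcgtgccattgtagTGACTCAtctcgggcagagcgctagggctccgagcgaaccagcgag

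TGACATCA stood at position -67 of JUN and at -123 of ATF3, so in 2 of the 9 windows, against 2.61% of 35116 promoters of the same length. EGR1 had CArG boxes at -105 and -83, the only member window with one (1.29% of all promoters), and TGACGT on the minus strand at -136 and -67. FOSL2 had TGACGT at -66 and the AP-1 sequence TGANTCA at position 5, the only one among the 9 windows (7.71% of all promoters). TGACGT was present in 5 of the 9 windows, those of FOS, FOSB, FOSL2, JUND and EGR1, against 7.98% of all promoters, and TATAAA in 4 of 9, against 7.33%. In JUND the TGACGT matches at -200 and -198 overlap in part, since both lie within TGACGTCA, which reads the same on either strand. No other matches overlapped. The window of JUNB, a gene called for mix below, held none of the elements marked by capitals. A match describes letters in this window and does not show binding. Sequence outside the windows was not searched, so a gene without a match here may have the element elsewhere.

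Each library held between 16403845 and 20901128 reads assigned to genes, recovered from the FPKM values, and mitochondrial transcripts took 3.81 to 7.08% of them. All 14 keratinocyte markers had a mean of at least 1 FPKM, summing to 2200 to 9390 FPKM per library. With mix, 6 of them rose under control siRNA and 7 under PHGDH siRNA, where 5.62% and 5.22% of all genes tested rose. Of the markers of other cells, none of 8 fibroblast, 6 melanocyte and 6 endothelial genes and 1 of 8 leukocyte genes (CD14, 1.6 FPKM) reached that mean, and PTPRC, TYROBP and KDR were at 0. PHGDH itself stood at 36.5, 56.2 and 45.8 FPKM in Control-siRNA replicates 1 to 3 and at 23.7, 20.1 and 16.9 FPKM in PHGDH-siRNA. With mix, the values were 31.9, 31.2 and 26.6 FPKM under control siRNA and 19.1, 13.3 and 11.5 FPKM under PHGDH siRNA. The PHGDH-siRNA libraries lay below their controls without overlap in both conditions, but neither log2 difference passed the limma test (-1.14, adjusted p = 0.128, and -1.01, adjusted p = 0.2). PHGDH also lay lower with mix under control siRNA, without overlap and without passing (log2 -0.594, limma adjusted p = 0.108). Under PHGDH siRNA the mix libraries overlapped those without mix (log2 -0.46, limma adjusted p = 0.222).

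Levels of the 10 transcripts spanned from 0.122 to 525 FPKM, and their order was similar in the 4 groups. JUNB, a JUN-type subunit of low transforming activity, and IER3, a short-lived stress-response protein tied to NF-kB and cell survival, were the most abundant per length in every group, and their ranges overlapped each other. FOSL1, which encodes FRA-1, followed in all 4 groups, although in Control-siRNA its range overlapped that of JUND. FOS and FOSB were the lowest in every group, at 1.44 to 2.57 FPKM and 0.122 to 0.973 FPKM over the 12 libraries. FOSB rested on 13 to 105 reads a library, so its values are the least precise. In between, the ranges of neighbours overlapped for FOSL2, EGR1 and JUN in Control-siRNA, for JUND and JUN in Control-siRNA+Mix, for JUN, EGR1, JUND and FOSL2 in PHGDH-siRNA, and for JUN, JUND and FOSL2 in PHGDH-siRNA+Mix. ATF3 lay between these and FOS without overlap in both control arms. In PHGDH-siRNA its range overlapped those of EGR1, JUN and FOS, and in PHGDH-siRNA+Mix those of EGR1 and JUND.

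Both FOSB (chr19:45467995-45475179, plus strand) and JUNB (chr19:12791496-12793315, plus strand) lie wholly within a gene of the other strand, ERCC1 and HOOK2. Whether reads were counted by strand is not given in the sources used here, and the overlap is of whole gene spans, introns included. Whether reads of the antisense partner entered the counts of these genes therefore cannot be told. ERCC1 reached at most 14.6 FPKM and HOOK2 at most 13.3 FPKM, which is small beside JUNB and large beside FOSB.

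**Figure D1:**
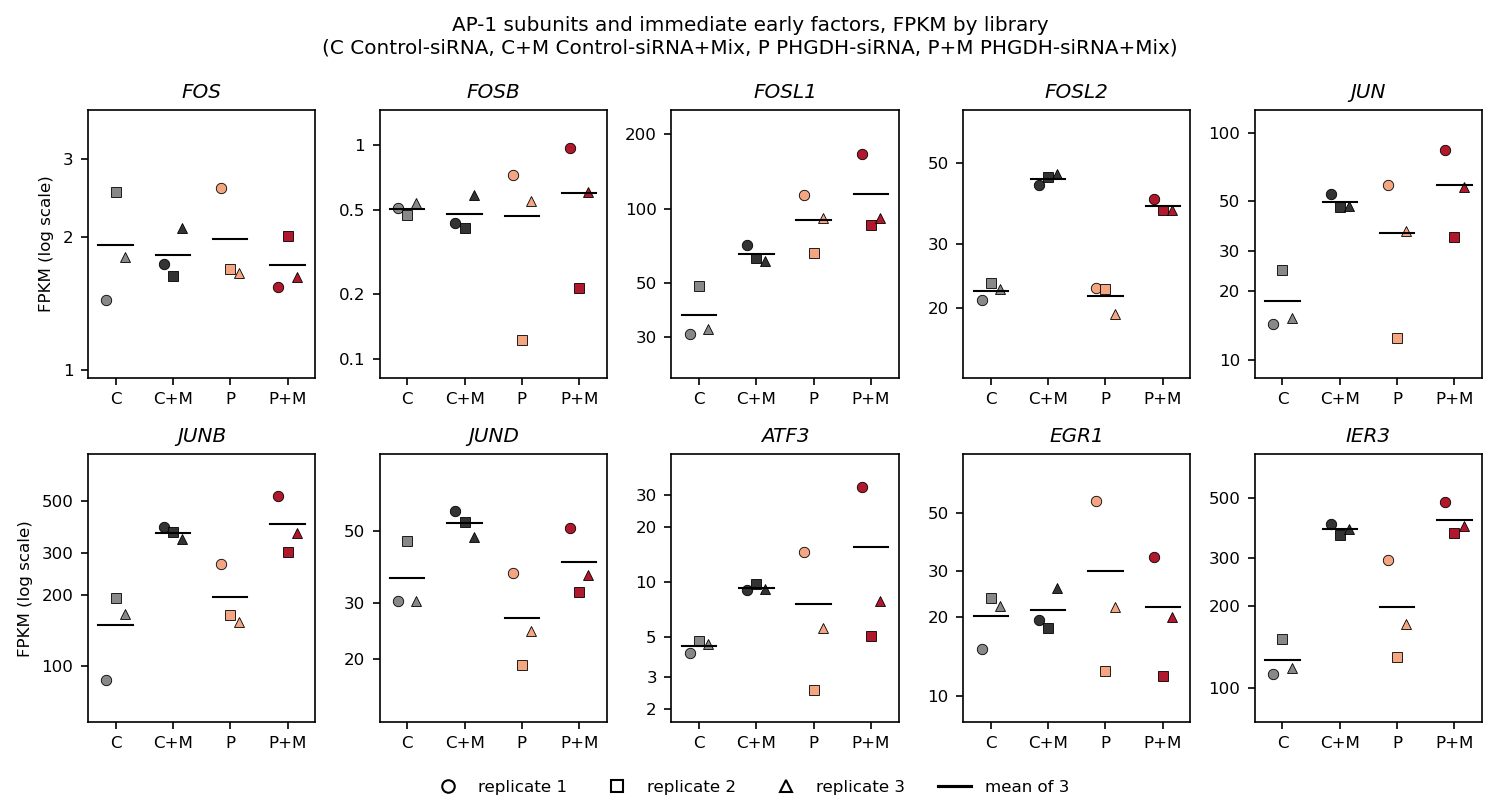
FPKM (log scale) of the 10 genes in each library, by group (C, Control-siRNA; P, PHGDH-siRNA; M, mix); circles, squares and triangles are replicates 1, 2 and 3, and lines are means of 3. FOSL2, JUNB and IER3 are higher with mix in both siRNA arms without overlap. FOSL1 is higher under PHGDH siRNA without overlap within each mix condition. ATF3 ranges from 5.07 to 33.3 FPKM in PHGDH-siRNA+Mix.

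What mix did to these genes under control siRNA was asked by comparing Control-siRNA+Mix with Control-siRNA. FOSL2, JUNB and IER3 rose, and JUN, FOSL1, ATF3 and JUND lay higher with mix in every library without passing the test, while FOS, FOSB and EGR1 overlapped. The test was limma on log2(FPKM + 1), fitted over all 12 libraries and 14577 genes, with Benjamini-Hochberg adjusted p-values called under 0.05. That made 3 of 10 members called higher, where 5.62% of all genes tested were called higher, and 0 called lower, where 3.92% were. Over all genes the split, 819 higher and 572 lower, turned to 735 and 787 with voom and to 711 and 781 when values were scaled to total recovered reads, and 3 members were called higher in each of these fits. The median log2 change was 0.87 over the members and 0.00398 over all genes tested. In bulk RNA, more cells with a transcript and more of it per cell cannot be told apart.

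FOSL2 encodes FRA-2, a FOS-type subunit without the strong activation domain of FOS. Its transcript (chr2:28392448-28417312, plus strand) stood at 21.0, 23.3 and 22.5 FPKM in Control-siRNA replicates 1, 2 and 3 and at 43.6, 45.6 and 46.5 FPKM in Control-siRNA+Mix. In the PHGDH-siRNA libraries it stood at 22.7, 22.5 and 19.2 FPKM, and in PHGDH-siRNA+Mix at 39.9, 37.0 and 37.1 FPKM. All 6 mix libraries were above all 6 libraries without mix, and the 3 libraries of each group lay close together. The rise was 2.03-fold of the means under control siRNA (log2 0.99, SE 0.104, limma adjusted p = 0.000133) and 1.77-fold under PHGDH siRNA (log2 0.80, SE 0.104, limma adjusted p = 0.000797).

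IER3 (chr6:30743199-30744554, minus strand) stood at 112, 151 and 118 FPKM in Control-siRNA and at 402, 365 and 386 FPKM in Control-siRNA+Mix. Under PHGDH siRNA it stood at 296, 129 and 171 FPKM without mix and at 482, 372 and 394 FPKM with mix. The mix libraries were above those without mix in both arms, and replicate 1 of the PHGDH-siRNA group lay well above the other libraries without mix. The rise under control siRNA was 3.02-fold of the means (log2 1.60, SE 0.257, limma adjusted p = 0.00268). Under PHGDH siRNA it was 2.09-fold (log2 1.14, SE 0.257, limma adjusted p = 0.0198). The latter call was lost in a fit of the PHGDH-siRNA groups alone (limma adjusted p = 0.163), with no filter on low values (0.0603) and without PHGDH-siRNA replicate 3 (0.0794) or PHGDH-siRNA+Mix replicate 1 (0.0678) or 3 (0.0564).

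JUNB stood at 87.1, 194 and 166 FPKM in Control-siRNA and at 386, 370 and 345 FPKM in Control-siRNA+Mix. The lowest mix library was above the highest library without mix, and Control-siRNA replicate 1 was the lowest of the 12. JUNB rose 2.47-fold of the means (log2 1.37, SE 0.314, limma adjusted p = 0.0197), a call lost with no filter on low values (0.0592) and without Control-siRNA+Mix replicate 1 (0.0744), 2 (0.0693) or 3 (0.0637). Under PHGDH siRNA it stood at 270, 165 and 154 FPKM without mix and at 525, 303 and 367 FPKM with mix. These groups did not overlap either, with a log2 difference of 1.03 (SE 0.314) that did not pass (limma adjusted p = 0.0718) but did with voom (log2 0.94, adjusted p = 0.0441).

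JUN, the founding JUN-type subunit and a target of JNK (chr1:58780788-58784327, minus strand), stood at 14.4, 24.8 and 15.3 FPKM in Control-siRNA and at 53.9, 47.2 and 47.5 FPKM in Control-siRNA+Mix. All 3 mix libraries were above the highest library without mix. The log2 difference was 1.44 (SE 0.475, 95% interval 0.39 to 2.48), which did not pass (limma adjusted p = 0.0916). FOSL1 (log2 0.82, adjusted p = 0.097) and ATF3 (log2 0.92, adjusted p = 0.431) did not pass either, although neither gene's groups overlapped. ATF3, a stress-induced bZIP factor that often represses, stood at 4.06, 4.75 and 4.53 FPKM without mix and at 8.99, 9.67 and 9.18 FPKM with mix under control siRNA, 2.09-fold of the means.

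The fit over all 12 libraries used 1 spread for the 4 groups, and the spread of these genes was not alike in them. For ATF3 the SD of log2 values was 0.0942 and 0.0487 in the control arms and 1.07 and 1.31 in the PHGDH-siRNA arms. In a fit of the control arms alone, JUN, FOSL1 and ATF3 passed (limma adjusted p = 0.00546, 0.0264 and 0.000826), which made 6 of 10 members, against 9.84% of all genes called higher there. Leaving out replicate 1 of both PHGDH-siRNA arms, an alternative added after the data were seen, also gave 6 (JUN 0.0428, FOSL1 0.0309, ATF3 0.0353), against 5.64% of all genes. Leaving out replicate 2 of both gave 5 (JUN 0.00308, FOSL1 0.0375), against 11.1%. Of the 10 members, 7 had mix libraries above those without mix with no overlap, where 19.1% of all genes tested did.

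JUND, the JUN-type subunit linked to slower growth (chr19:18279760-18281622, minus strand), stood at 30.4, 46.8 and 30.3 FPKM in Control-siRNA and at 57.8, 53.2 and 47.9 FPKM in Control-siRNA+Mix (log2 0.58, adjusted p = 0.212). FOS, the labile prototype of its family (chr14:75278774-75282230, plus strand), stood at 1.44, 2.52 and 1.80 FPKM without mix and at 1.74, 1.63 and 2.09 FPKM with mix. The log2 difference of FOS was -0.04 with a 95% interval of -0.40 to 0.33. EGR1, a zinc finger factor switched on through SRF (chr5:138465490-138469315, plus strand), stood at 15.2, 23.7 and 22.1 FPKM without mix and at 19.6, 18.3 and 25.9 FPKM with mix, and its interval ran from -0.97 to 1.12. FOSB stood at 0.509, 0.473 and 0.534 FPKM without mix and at 0.434, 0.411 and 0.586 FPKM with mix, with a log2 difference of -0.03. The libraries of FOS, EGR1 and FOSB overlapped between the groups, and the interval of EGR1 leaves room for a change of about the size seen for FOSL2. That interval uses the spread of all 4 groups. The SD of log2 values of EGR1 was 0.327 and 0.256 in the control arms and 1.05 and 0.714 in the PHGDH-siRNA arms.

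The same question under PHGDH siRNA compared PHGDH-siRNA+Mix with PHGDH-siRNA. FOSL2 and IER3 rose here too, so 2 of 10 members were called higher against 5.22% of all genes tested, and 0 were called lower, against 3.64%. The split over all genes, 761 higher and 530 lower, turned to 646 and 870 with voom, where JUNB was called too, and to 619 and 852 scaled to total recovered reads. The 2 genes called in both arms compare with 4.12% of all genes called higher in both. The members' median log2 change was 0.683, against 0 over all genes. FOSL2, JUNB and IER3 were the members whose groups did not overlap, 3 of 10 against 11.3% of all genes.

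In these PHGDH-siRNA arms the libraries of the same number deviated together. Their deviations from the group means correlated across genes at 0.69, 0.775 and 0.459 for numbers 1, 2 and 3, which was taken as pairing. With the number as a replicate block in these arms, 6 of 10 members rose with mix, where 12.1% of all genes rose and 10.4% fell. They were FOSL2 (limma adjusted p = 0.000163), IER3 (0.00132), ATF3 (log2 0.78, SE 0.121, 0.00204), JUNB (0.0182), JUN (log2 0.84, 0.0229) and JUND (log2 0.58, 0.0299). The lines that join libraries of the same number show the difference between the fits.

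ATF3 stood at 14.5, 2.55 and 5.57 FPKM in PHGDH-siRNA replicates 1 to 3 and at 33.3, 5.07 and 7.88 FPKM in PHGDH-siRNA+Mix. The groups overlapped, yet each mix library was above the library of its own number, by 2.29-, 1.98- and 1.41-fold. JUN stood at 59.0, 12.5 and 36.8 FPKM without mix and at 83.5, 34.6 and 57.5 FPKM with mix, and its same-number ratios were 1.41, 2.76 and 1.56. For JUND the values were 37.0, 19.1 and 24.4 FPKM without mix and 51.2, 32.3 and 36.7 FPKM with mix, with ratios of 1.38, 1.69 and 1.5. The block fit called these 3 genes on the same ratios, so their direction is no further support for the calls. FOSB also had ratios above 1 (1.33, 1.75 and 1.1) and did not pass with the block (limma adjusted p = 0.433).

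EGR1 went the other way within each number, without passing the test. It stood at 55.7, 12.5 and 22.0 FPKM in PHGDH-siRNA and at 33.9, 11.97 and 19.97 FPKM in PHGDH-siRNA+Mix, ratios of 0.608, 0.959 and 0.909. With the replicate block its log2 difference was -0.30 (95% interval -0.74 to 0.15, limma adjusted p = 0.312). FOS (log2 -0.12, limma adjusted p = 0.64 with the block) and FOSB (log2 0.12, 0.433) did not pass either.

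**Figure D2:**
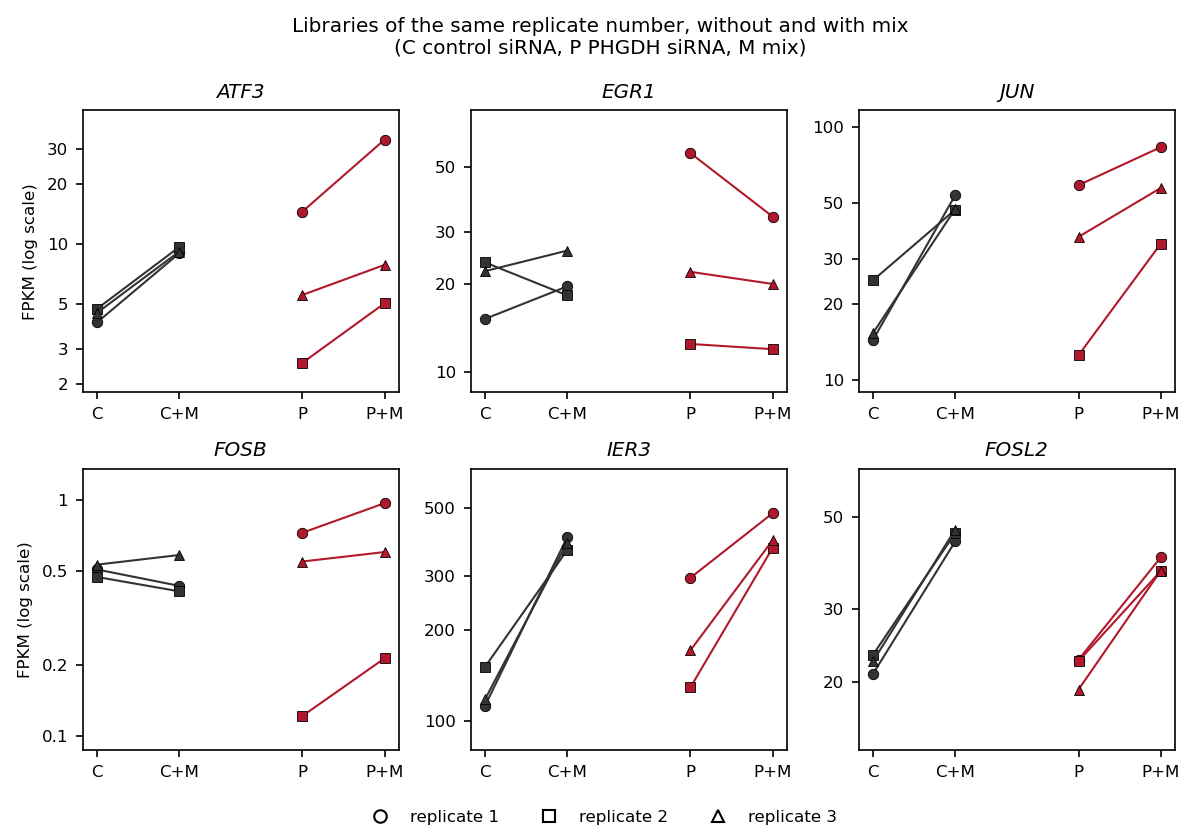
FPKM (log scale) of 6 genes with lines joining the libraries of the same replicate number without and with mix (C, control siRNA; P, PHGDH siRNA; M, mix). In the PHGDH-siRNA arms (red) the 3 lines of ATF3 rise from 14.5, 2.55 and 5.57 FPKM to 33.3, 5.07 and 7.88 FPKM without crossing, and those of EGR1 run downward.

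Whether PHGDH siRNA altered the mix response was tested as the difference between the 2 arms' log2 changes. No member passed (all adjusted p = 1 by limma), and 0 of the 14577 genes did (0%), by limma or with voom. Without adjustment 250 genes (1.72%) had a p under 0.05, and none was a member. The differences ran from -0.60 for JUN (95% interval -2.08 to 0.88) to 0.15 for FOSB (-0.47 to 0.76). FOSL2 had the tightest interval, -0.52 to 0.13, and FOSL1 differed by -0.51 (-1.37 to 0.35). With the replicate block in the PHGDH-siRNA arms the intervals were narrower and again no member passed (all limma adjusted p = 1). They ran from -1.29 to 0.10 for JUN, from -1.06 to 0.05 for FOSL1, from -0.98 to 0.06 for IER3, from -0.52 to 0.25 for ATF3 and from -0.44 to 0.05 for FOSL2.

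**Figure D3:**
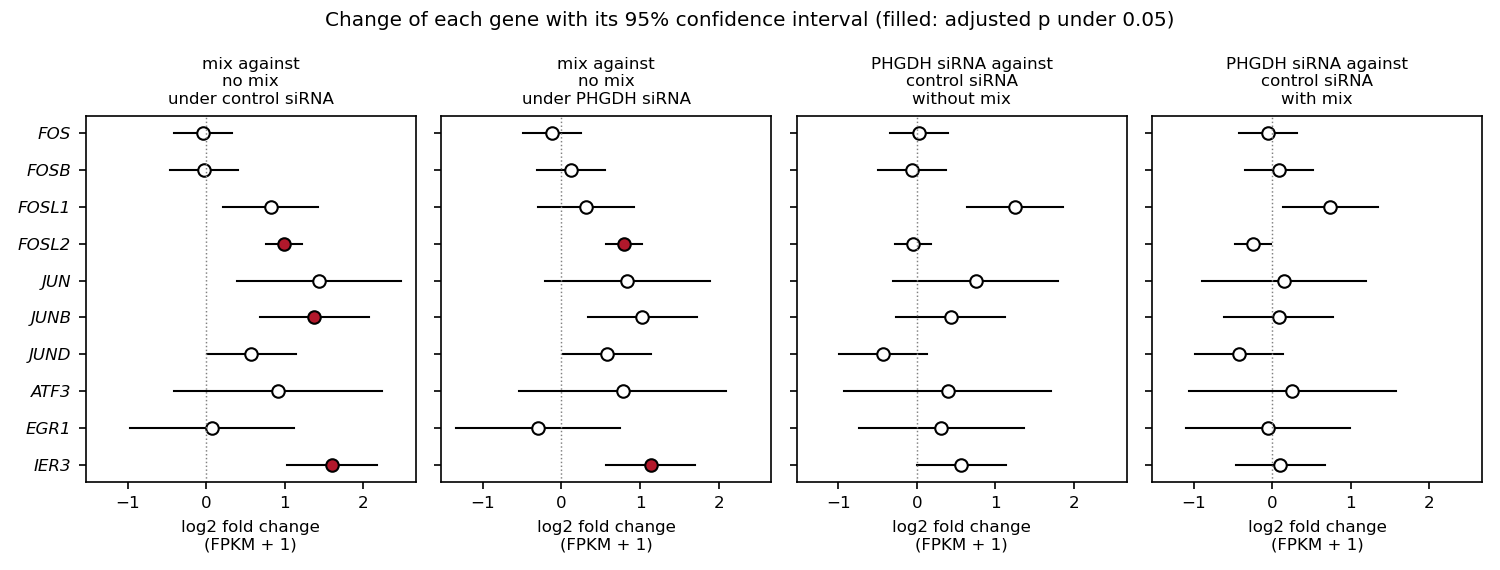
Log2 change of each gene, on the log2(FPKM + 1) scale, with its 95% confidence interval in 4 comparisons; filled points passed limma's adjusted p of 0.05. FOSL2 and IER3 are filled for mix in both arms and JUNB under control siRNA, and no point is filled for PHGDH siRNA, where FOSL1 lies at 1.25 without mix and 0.74 with mix.

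The effect of PHGDH siRNA itself was asked without and with mix. No member passed in either condition, FOSL1 lay higher without overlap in both, and FOSL2 lay slightly lower with mix. Few genes of any kind passed limma: 6 of 14577 without mix (0.0412%) and 3 with mix (0.0206%). Unadjusted p-values under 0.05 came to 935 (6.41%) and 834 (5.72%), among them FOSL1 and IER3 without mix and FOSL1 and FOSL2 with mix. With voom 0 of 10 members passed in each condition as well.

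FOSL1 (chr11:65892049-65900573, minus strand), the FOS-type gene best known for induction in migrating and transformed epithelial cells, stood at 30.9, 48.3 and 32.3 FPKM in Control-siRNA and at 113, 65.8 and 91.5 FPKM in PHGDH-siRNA. With mix it stood at 71.4, 63.3 and 61.1 FPKM under control siRNA and at 167, 86.1 and 91.6 FPKM under PHGDH siRNA. Every PHGDH-siRNA library was above every control library of its condition. Without mix the means differed 2.42-fold (log2 1.25, SE 0.276, 95% interval 0.64 to 1.86), which did not pass (limma adjusted p = 0.233). With mix they differed 1.76-fold (log2 0.74, SE 0.276, 95% interval 0.13 to 1.35, limma adjusted p = 0.759).

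Groups without overlap, higher under PHGDH siRNA, made up 4.89% of all genes without mix and 7.01% with mix, and 1.89% in both, so 1 of 10 members is to be read against those shares. The libraries behind the 2 conditions are also linked by number, as shown above. Averaged over the conditions, a comparison added after the data were seen, the log2 difference of FOSL1 was 1.00 (SE 0.195, limma adjusted p = 0.0643), where 71 genes (0.487%) passed, a count that ran from 2 to 96 with 1 library left out. It passed with voom (0.0321), when values were scaled to the total of recovered reads (0.0317), and without replicate 2 of PHGDH-siRNA (0.0449), of PHGDH-siRNA+Mix (0.0472) or of both (log2 1.19, 0.0139). It did not pass with a pseudocount of 0.1 (limma adjusted p = 0.0641), no filter on low values (0.189) or a replicate block over all libraries (0.0849). Nor did it pass without replicate 1 of both PHGDH-siRNA arms (0.118). Without any 1 library other than replicate 2 of a PHGDH-siRNA arm it did not pass either (0.0771 to 0.204). With same-numbered libraries averaged into 1, FOSL1 had an adjusted p of 0.631 and no gene passed. PHGDH itself passed the averaged comparison with all libraries (log2 -1.08, limma adjusted p = 0.0197).

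Of the other members under PHGDH siRNA, JUND had log2 differences of -0.43 without mix and -0.42 with mix (adjusted p = 0.918 and 0.979), its libraries overlapping in both. FOSL2 was at -0.05 without mix and at -0.25 with mix (95% interval -0.48 to -0.02, limma adjusted p = 0.832), where the groups did not overlap, as for 7.33% of all genes. JUN was at 0.75 and 0.15, JUNB at 0.43 and 0.08, IER3 at 0.57 and 0.11, and ATF3 at 0.39 and 0.26 without and with mix. The direction of several of these rested on 1 pair of libraries: without replicate 1 of both PHGDH-siRNA arms, ATF3 was at -0.17 and -0.48 and EGR1 at -0.25 without mix, and JUN at -0.14 and JUNB at -0.14 with mix.

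The libraries under PHGDH siRNA were spread along 1 order for most of the 10 genes. Replicate 1 was the highest of the 3 libraries in both PHGDH-siRNA arms for 9 of 10 members, against 27.7% of all genes tested, and replicate 2 the lowest in both for 7 of 10, against 33.9%. Both held for 7 of 10 members, against 20.7% of all genes. The highest library of ATF3 was 5.69 times its lowest in PHGDH-siRNA and 6.57 times in PHGDH-siRNA+Mix (1.17 and 1.08 in the control arms). The same ratio was 5.97 and 4.54 for FOSB, on few reads, 4.72 and 2.41 for JUN, and 4.47 and 2.83 for EGR1. For ATF3 and EGR1, replicate 1 lay over 1 log2 unit above and replicate 2 over 1 log2 unit below the other libraries of the group in both arms, which held for 0.494% and 2.24% of all genes.

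The SD of log2 values was larger in both PHGDH-siRNA arms than in either control arm for FOSB, FOSL1, JUN, ATF3 and EGR1, and not for FOS, FOSL2, JUNB, JUND and IER3. JUN had SDs of 0.408 and 0.106 in the control arms and 1.10 and 0.626 in the PHGDH-siRNA arms. JUNB had 0.606 and 0.0821 in the control arms and 0.44 and 0.4 in the others, and FOSL2 had 0.0739, 0.0475, 0.128 and 0.0605. The median over all genes was 0.186 and 0.0958 in the control arms, without and with mix, and 0.239 and 0.251 under PHGDH siRNA. The same order of replicates 1 and 2 in both arms was found for 10 of 16 other immediate early genes, 7 of 12 other bZIP partners, 7 of 19 genes of the MAP kinase and SRF route and 2 of 15 epithelial genes with AP-1 sites. The labels give no batch, and what these numbers share was not tested.

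The make-up of the AP-1 transcript pool puts the FOS-type and JUN-type genes side by side. FOSL1 took 59.6% ± 4.49 (SD, n = 3) of the summed FOS-type FPKM in Control-siRNA, 57.8% ± 2.86 in Control-siRNA+Mix, 78.5% ± 4.71 in PHGDH-siRNA and 72.8% ± 6.03 in PHGDH-siRNA+Mix. The control libraries ranged from 55.4 to 64.7% and the PHGDH-siRNA libraries from 68.7 to 81.3%, so they did not overlap. FOSL2 made up most of the remainder, with means of 36.5, 40.2, 19.4 and 25.6%, and FOS took 1.19 to 3.07%. Among JUN-type transcripts JUNB led in every group (72.5, 78.2, 76.4 and 80.4%), while JUND took 18.4% in Control-siRNA and 8.14 to 11.3% in the other groups.

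Summed FOS-type transcripts came to 61.8, 113, 114 and 155 FPKM in the 4 groups in the same order, and JUN-type transcripts to 203, 470, 259 and 497 FPKM. In PHGDH-siRNA+Mix the libraries ran from 125 to 209 FPKM for FOS-type and from 370 to 660 FPKM for JUN-type transcripts. The ratio of JUN-type over FOS-type was 3.24, 4.16, 2.24 and 3.21. Its libraries ran from 2.45 to 3.7, 3.99 to 4.25, 1.91 to 2.64 and 2.96 to 3.53. Those of Control-siRNA thus overlapped those of both PHGDH-siRNA groups. The shares, sums and ratios are of transcript per length, not of protein or of dimers, and are given as a description with no test.

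**Figure D4:**
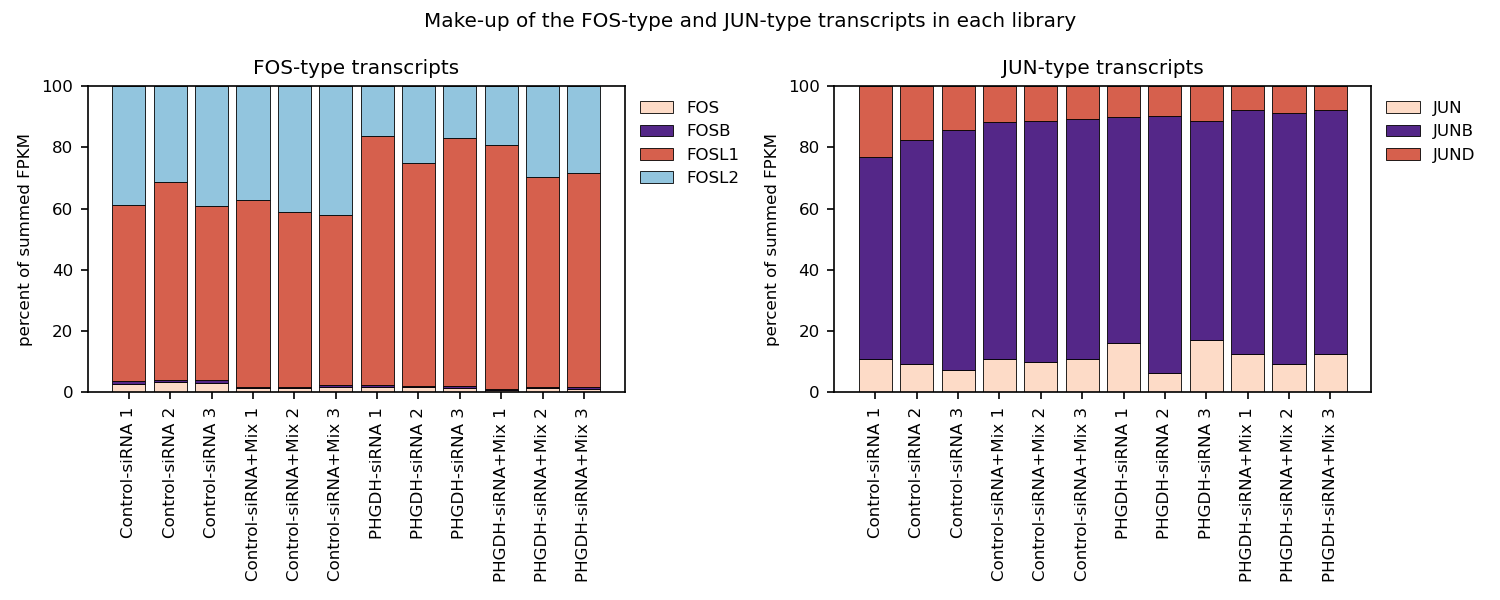
Percent of summed FPKM taken by each gene among the FOS-type (left) and JUN-type (right) transcripts, 1 bar per library. FOSL1 takes 55.4 to 64.7% in the 6 control-siRNA libraries and 68.7 to 81.3% in the 6 PHGDH-siRNA libraries, and JUNB is the largest share of the JUN-type transcripts in each.

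Other genes of the pathway were taken from 4 lists, which were chosen with earlier results of these data known. By limma, 0 genes of any of them were called for PHGDH siRNA in either condition. Among other immediate early genes, 5 of 16 tested rose with mix under control siRNA and 4 of 16 under PHGDH siRNA, with 0 falling. Of all genes tested, 5.62% and 5.22% rose and 3.92% and 3.64% fell in the 2 arms. SGK1, a serum-induced kinase, went from a mean of 0.972 to 12.2 FPKM under control siRNA (log2 2.75, limma adjusted p = 4.79e-05) and from 1.94 to 11.1 FPKM under PHGDH siRNA (log2 2.08, 0.000412). BHLHE40, a transcriptional repressor, rose by log2 1.61 and 1.41, KLF6, a zinc finger factor, by 1.19 and 0.96, and MCL1, an inhibitor of apoptosis, by 0.72 and 0.64. The fifth was ZFP36 under control siRNA, which destabilises mRNAs with AU-rich elements (log2 1.00, limma adjusted p = 0.0354), named after its value was seen. The list's median log2 change with mix was 0.611 and 0.508 in the 2 arms. Under PHGDH siRNA 15 of 16 had a positive difference without mix (median 0.496) and 11 of 16 with mix (median 0.244). None passed, and the medians over all genes tested were 0.00652 and -0.0011. Replicate 1 was the highest library in both PHGDH-siRNA arms for 12 of these 16 genes, against 27.7% of all genes. Genes that share such an order are not separate observations of the siRNA. Without mix the differences were also positive for 7 of the 10 members, 11 of 12 bZIP partners and 14 of 14 keratinocyte markers. They were positive for 12 of 19 genes of the MAP kinase and SRF route and for 8 of 15 epithelial genes with AP-1 sites. The share of positive differences over all genes is not given here, and the median over all genes was 0.00652.

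Among 12 other bZIP partners of AP-1, none passed in either arm, and the medians with mix were 0.349 and 0.324. MAFF, a small MAF protein, had the smallest p of the list under control siRNA (5.36 to 14.8 FPKM, log2 1.33, limma adjusted p = 0.131), and in PHGDH-siRNA+Mix its libraries ran from 8.84 to 41.1 FPKM. Of the 19 genes tested on the MAP kinase and SRF route, 2 rose under control siRNA and 3 under PHGDH siRNA, against 5.62% and 5.22% of all genes. The medians of the route were 0.0136 and 0.0635. The genes that rose were ELK3, an SRF partner (log2 1.20 and 1.30), MAP2K1, the kinase upstream of ERK (0.69 and 0.58), and, under PHGDH siRNA, MAPK11, a p38 kinase (1.07).

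Epithelial genes with known AP-1 sites moved the most among the 4 lists. With mix 8 of 15 rose and 2 fell under control siRNA, where 5.62% of all genes tested rose and 3.92% fell. Under PHGDH siRNA 7 rose and 1 fell, against 5.22% and 3.64% of all genes. The medians of the list were 1.45 and 1.33. MMP1, a collagenase, went from 11.1 to 133 FPKM under control siRNA (log2 3.48, limma adjusted p = 0.00058) and from 10.2 to 107 FPKM under PHGDH siRNA (log2 3.20, 0.00127). PLAU, the urokinase protease, rose by log2 2.12 and 2.11, its receptor gene PLAUR by 1.45 and 1.33, and CD44, the hyaluronan receptor, by 0.94 and 0.94. The genes that fell, named after their values were seen, were IVL, the cornified envelope protein involucrin (log2 -1.27 and -0.96), and FLG, the barrier protein filaggrin, under control siRNA (log2 -0.62). In the averaged comparison of PHGDH siRNA with control, PLAUR (log2 0.60, limma adjusted p = 0.0271) and PLAU (log2 0.86, 0.042) passed, and with same-numbered libraries averaged no gene did.

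**Figure D5:**
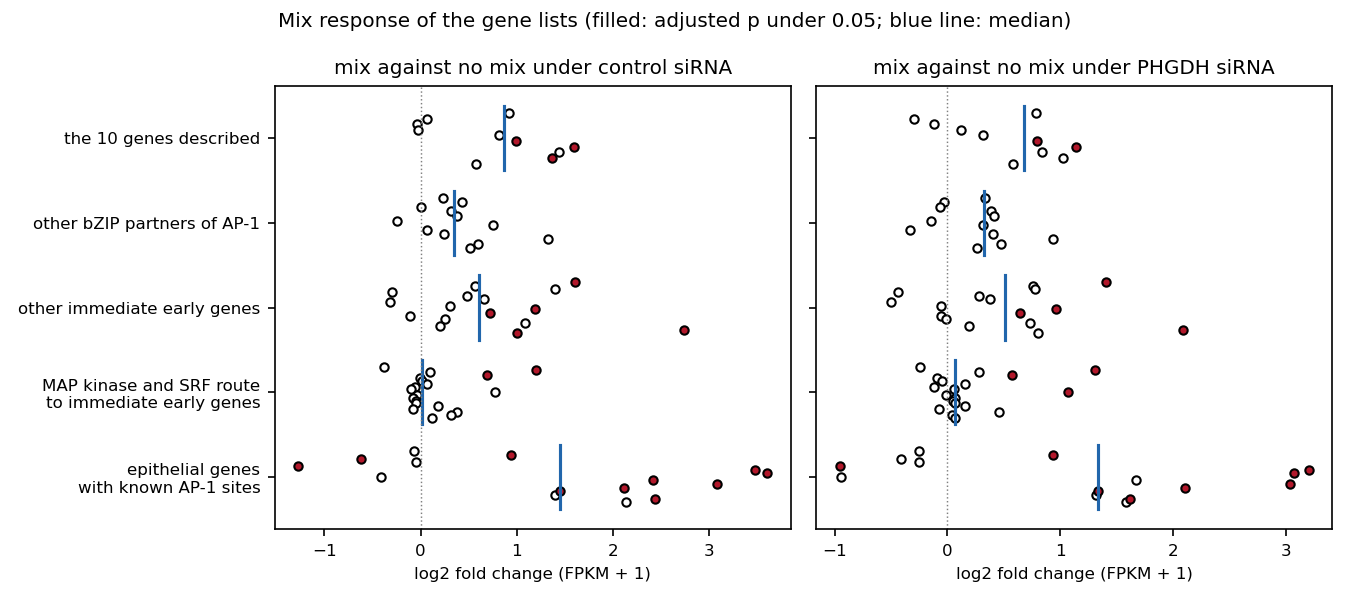
Log2 change with mix, on the log2(FPKM + 1) scale, of each tested gene in 5 sets under control siRNA (left) and PHGDH siRNA (right); filled points passed limma's adjusted p of 0.05 and blue lines are medians. The epithelial genes with AP-1 sites have the highest medians (1.45 and 1.33), those of the 10 genes described are 0.87 and 0.683, and the MAP kinase and SRF route lies near 0.

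The genes whose profile over the 12 libraries was most like that of a member were found by the root mean square difference between profiles scaled to an SD of 1. FOSL2 was nearest to CTSB (0.132), TMEM132A (0.133) and S100A7 (0.146), all close to its pattern of 6 high and 6 low libraries. Nearest to IER3 were EPHA2 (0.192), CEBPB (0.233) and DNAJC5 (0.24), and nearest to JUNB were KIAA1191 (0.189), CKAP4 (0.203) and ACP2 (0.204). ATF3, with its high replicate 1 under PHGDH siRNA, was nearest to FUT1 (0.168), ITPRIP (0.198) and PPP1R15A (0.229), and JUN to MIDN (0.193), KIFC3 (0.244) and INPP5E (0.248). FOSL1 was nearest to CACNB1 (0.287), ZDHHC18 (0.311) and CHPF (0.314). JUND was nearest to SURF4 (0.193), IL15RA (0.288) and STARD10 (0.309), and FOSB, the lowest gene, to HSPBAP1 (0.214), MYD88 (0.313) and MAU2 (0.328). EGR1 was nearest to ZNF7 (0.385), SLC25A25 (0.409) and FAM27E3 (0.41). FOS had the most distant nearest genes, MIR4689 (0.542), NUBP1 (0.628) and ACAA1 (0.645). Likeness over libraries that share groups and numbers is a description.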

How the data were processed

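RNA was extracted with RNAiso Plus and made into libraries with a NEBNext Ultra RNA kit, per the labels' protocols. Per the submitters' processing notes the tools were HISAT2 2.0.5 and featureCounts 1.5.0-p3, besides CASAVA, and the genome build was hg38. The authors deposited 1 table of FPKM values with gene lengths and coordinates, and its 58735 identifiers all match GENCODE 29 in start, end and strand. The strand setting of the counting is not given in the sources used here.

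FPKM times gene length gave whole reads for 100% of the values of up to 200 reads in each library, within 0.05 of a read, for a depth of 16403845 to 20901128 reads. The deposited values already had equal median-ratio scale between libraries (factor 1.013 in each). Scaling to total reads moved the median log2 change of all genes to at most -0.0616.

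Genes with a mean of at least 0.5 FPKM in at least 1 group (14577, all 10 members among them) were tested as log2(FPKM + 1) with limma 3.58.1 in R 4.3.3 (trend and robust variance, 4 group means over 12 libraries, 8 residual degrees of freedom before moderation), adjusted by Benjamini-Hochberg and called under 0.05, with 95% intervals. A fold change on this scale understates the change of low genes. With 3 libraries against 3 the smallest p of an exact permutation test is 0.1, so none was used. The fit was also run on simulated data with the same spread in all groups, no linked libraries and changes in Control-siRNA+Mix only. That run does not speak to the unequal spread or the linked libraries of the PHGDH-siRNA arms.

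The members and lists were chosen with earlier results of these data known. All 10 members are named whatever their result. From each list up to 4 called genes per comparison are named by lowest adjusted p, or the 2 of lowest raw p where none was called, of which a few are printed, and for likeness 3 genes per member.

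Replicate numbers come from the labels. Same-numbered libraries correlated in their deviations at over 0.1 in 5 of 18 pairs of groups and numbers (range -0.387 to 0.775), among them all 3 of PHGDH-siRNA with PHGDH-siRNA+Mix, so only these arms were taken as paired. The alternatives were a pseudocount of 0.1, no filter, median-ratio scaling, voom on recovered reads, the replicate block, fits of the compared groups alone, and leaving out each library or replicate 2 of both PHGDH-siRNA arms. Median-ratio scaling divided all libraries by the same factor, 1.013, so it could hardly change a call. Chosen after the data were seen were the averaged PHGDH siRNA comparison and its fit on averaged same-numbered libraries, leaving out replicate 1 of both PHGDH-siRNA arms, scaling to total reads, and the block in a fit of the PHGDH-siRNA groups alone.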

Additional observations from a re-analysis of the deposited data

How the results depend on the processing

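In the fits that changed 1 choice, FOSL2 (both arms) and IER3 (control arm) passed for mix in each one run, and 0 members passed for PHGDH siRNA without mix or with mix. Counts below are of genes, or of the 10 members, past the threshold, and all differences are log2. For PHGDH siRNA without mix (6 genes), the count was 1 with no filter on low values, 0 in a fit of the compared groups alone, 0 with the replicate block over all libraries, 101 without replicate 2 and 1 without replicate 1 of both PHGDH-siRNA arms. With mix (3 genes) it was 1 with a pseudocount of 0.1, 5 with no filter, with voom or scaled to total reads, 0 in a fit of the groups alone and with the block over all libraries, and 55 without replicate 2 of both arms.

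For mix under control siRNA (1391 genes, 3 members), a fit of the groups alone gave 2642 genes and 6 members, leaving out replicate 2 of both PHGDH-siRNA arms gave 3023 and 5, and leaving out replicate 1 of both gave 6 members. Under PHGDH siRNA (1291 genes, 2 members), no filter gave 761 and 1, a fit of the groups alone 238 and 1, the replicate block in these arms 3284 and 6, the same block in a fit of these groups alone 3948 and 6, and leaving out replicate 2 or replicate 1 of both arms 2190 and 481 genes. The replicate block over all libraries changed the call of no member. For the difference between the arms (0 genes), no filter gave 5. For the averaged PHGDH siRNA comparison (71 genes, 0 members), no filter gave 14 genes, the block over all libraries 39, averaged same-numbered libraries 0, voom and scaling to total reads 1 member each, leaving out replicate 2 of both arms 492 genes and 2 members, and leaving out replicate 1 of both 5 genes.

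Signs turned only in members that did not pass. Without replicate 1 of both PHGDH-siRNA arms, the difference for PHGDH siRNA without mix was -0.11 for FOS, -0.17 for ATF3 and -0.25 for EGR1, and with mix -0.080 for FOSB, -0.14 for JUN, -0.14 for JUNB, -0.48 for ATF3 and -0.0058 for IER3. Averaged, it was -0.14 for FOSB, -0.33 for ATF3 and -0.34 for EGR1. In that setting FOS was at 0.069 for mix under PHGDH siRNA and at 0.11 for the difference between the arms. Without replicate 2 of both arms, FOSB was at 0.12 and EGR1 at 0.30 for PHGDH siRNA without and with mix, and JUND at -0.063 for the difference between the arms (-0.011 scaled to total reads). EGR1 was at -0.0018 for mix under control siRNA with voom, and FOSB at -0.091 (pseudocount of 0.1) and -0.17 (voom) in the averaged comparison.

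With single libraries left out in turn (the remaining 2 of a group share the spread of all groups), results that changed ranged as follows. For PHGDH siRNA without mix these were genes past the threshold from 0 to 4, FOS from -0.11 to 0.17, FOSB from -0.19 to 0.12, FOSL2 from -0.092 to 0.022, ATF3 from -0.17 to 0.89 and EGR1 from -0.25 to 0.78. For PHGDH siRNA with mix these were genes past the threshold from 0 to 6, FOS from -0.12 to 0.017, FOSB from -0.080 to 0.27, JUN from -0.14 to 0.48, JUNB from -0.14 to 0.26, ATF3 from -0.48 to 0.76, EGR1 from -0.42 to 0.30 and IER3 from -0.0058 to 0.18. For mix under control siRNA these were genes past the threshold from 658 to 1223, FOS from -0.16 to 0.11, FOSB from -0.081 to 0.0029, JUNB from 1.03 to 1.60 and EGR1 from -0.12 to 0.19. For mix under PHGDH siRNA these were genes past the threshold from 665 to 1644, members past the threshold from 1 to 2, FOS from -0.19 to 0.022, FOSB from -0.064 to 0.30, EGR1 from -0.77 to 0.27 and IER3 from 0.87 to 1.47. For the difference between the arms these were FOS from -0.22 to 0.059, FOSB from -0.035 to 0.33, JUND from -0.20 to 0.26, ATF3 from -0.88 to 0.43 and EGR1 from -0.84 to 0.20. For the averaged comparison these were genes past the threshold from 2 to 96, members past the threshold from 0 to 1, FOS from -0.081 to 0.061, FOSB from -0.070 to 0.10, FOSL1 from 0.85 to 1.10, ATF3 from -0.047 to 0.58 and EGR1 from -0.16 to 0.36. The gene count moved by over 1.5 times without any 1 of the control-arm libraries but Control-siRNA replicate 1 for mix under control siRNA, and without PHGDH-siRNA replicate 1 or 3 or PHGDH-siRNA+Mix replicate 3 for mix under PHGDH siRNA. For the averaged comparison it did so without any 1 library but replicate 2 of PHGDH-siRNA or of PHGDH-siRNA+Mix.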
